A study of Mus musculus with 31 samples.

Results

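Marker genes of Kupffer cells, sinusoidal endothelial cells and stellate cells, the main cell types of the liver other than the hepatocyte, were followed through 8 groups of mouse livers. The 32 genes were 11 Kupffer cell markers, 10 endothelial markers and 11 stellate markers, out of 17097 genes on the array. They were taken from textbook knowledge of the cell types and not by a rule on their values, but with earlier results of these data known. Where several probe sets were assigned to a gene, the one with the highest mean over the 31 arrays was used. The study looked for genes that depend on XBP1, which turns on genes of the unfolded protein response, and for mRNAs that are cleaved by IRE1α, the stress sensor of the endoplasmic reticulum, which is encoded by Ern1. RNA of whole liver from male mice was measured in 3 experiments, with 4 arrays in each group except untreated Ire1 ko, which had 3.

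The first experiment compared Xbp1 ko livers with those of WT littermates, all C57BL/6, in the fed state and 14 weeks old. The second used Xbp1 ko mice only, C57BL/6 and 9 weeks old, sampled 8 days after injection of siRNA against IRE1 or, as the control, against luciferase. The third compared WT mice labelled C57BL/6 with Ire1 ko mice labelled as a mixed strain, all 14 weeks old, either untreated in the fed state or 6 h after 2 mg/kg tunicamycin, which blocks N-glycosylation and so causes stress in the endoplasmic reticulum. The untreated WT mice are also titled littermates of the Ire1 ko mice. By these labels an effect of strain and one of losing Ire1 cannot be told apart. The deleted part of each gene, the cells in which it was deleted and any Cre driver are not given in the sources used here, so it is not known from them whether the marked cell types carried the deletion. Ern1 read 148 to 153 in untreated Ire1 ko and 121 to 203 in untreated WT liver, and without the position of the deletion this does not check the genotype. The arrays are labelled biological replicates, and their number limits the precision. The labels give no vehicle for tunicamycin, and its controls are called untreated.

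Kupffer cells are the resident macrophages of the liver and sit in the sinusoids, where they take up particles, bacteria and aged red cells. Sinusoidal endothelial cells line these vessels with a fenestrated wall and clear waste molecules from the blood through scavenger and Fc receptors. Stellate cells lie between that wall and the hepatocytes, store vitamin A as retinyl esters and, when activated, make the fibrillar collagens of liver fibrosis.

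The values are probe set intensities on a linear scale as deposited, with log2 taken for tests, and a level is compared here only with the same probe set on other arrays. Values near 5, the median of every array, are at the floor of the array. A mean intensity of 16 or more over all arrays was reached by 22 of the 32 members. Among Kupffer cell markers these were Cd5l (AIM, a secreted survival factor of macrophages), Clec4f and Vsig4 (a lectin and a complement receptor of Kupffer cells), Adgre1 (F4/80), Csf1r (the receptor for the macrophage growth factors CSF1 and IL-34), C1qa, C1qb and C1qc (the chains of complement C1q) and Cd68 (a lysosomal glycoprotein). Among endothelial markers they were Kdr (VEGF receptor 2), Stab1 and Stab2 (the stabilins, scavenger receptors), Fcgr2b (the inhibitory Fc receptor), Clec4g (LSECtin, a lectin), Tek (the angiopoietin receptor Tie2) and Eng (endoglin, a TGF-β co-receptor). Among stellate markers they were Dcn (decorin, a matrix proteoglycan), Reln (reelin), Col3a1 and Col4a1 (collagen chains), Colec11 (collectin 11) and Rgs5 (a regulator of G protein signalling that also marks pericytes). The other 10 members stayed below that mean, and several defining markers were at the floor. The pan-endothelial adhesion genes Pecam1 and Cdh5 read between 5 and 11 and between 5 and 8 on the 31 arrays, the Kupffer cell receptor Timd4 between 5 and 12, and desmin, Des, between 4 and 6. Col1a2 read between 3 and 5 and passed the filter on low values in no comparison, so 31 members were tested in each. Lrat, which makes retinyl esters, reached 48 on 1 array. The summed intensity of a list of hepatocyte genes lay between 64924 and 82703 on every array, while the summed lists of cholangiocyte and mesothelial genes stayed between 25 and 37.

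Single arrays stood apart in the Kupffer cell markers. In untreated Ire1 ko liver, replicate 1 had the highest value of its group in 9 of the 9 Kupffer cell markers with a mean of 16 or more, in 7 of 7 endothelial markers and in 6 of 6 stellate markers. Its summed Kupffer cell marker intensity was 2503, against 758 and 830 in replicates 2 and 3. Its hepatocyte list summed to 69447, against 74744 and 71551. Among WT untreated arrays, replicate 4 was the lowest in 9 of 9 Kupffer cell markers, with a sum of 779 against 1205, 1615 and 1582. Replicate 1 of Xbp1 ko was the highest in 8 of 9, with 2220 against 1343, 1589 and 1127. The same array read 53 for S100a9 and 19 for S100a8, which are calprotectin subunits of neutrophils and monocytes, where the other Xbp1 ko arrays read 6 to 10 and 5 to 6. In the siRNA experiment, replicate 4 of the arrays labelled IRE1 siRNA was the lowest in 9 of 9, and replicate 4 of those labelled luciferase was the highest in 7 of 9. What set these arrays apart was not tested. In RNA of whole liver, fewer cells of a type and less RNA per cell cannot be told apart.

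**Figure D1:**
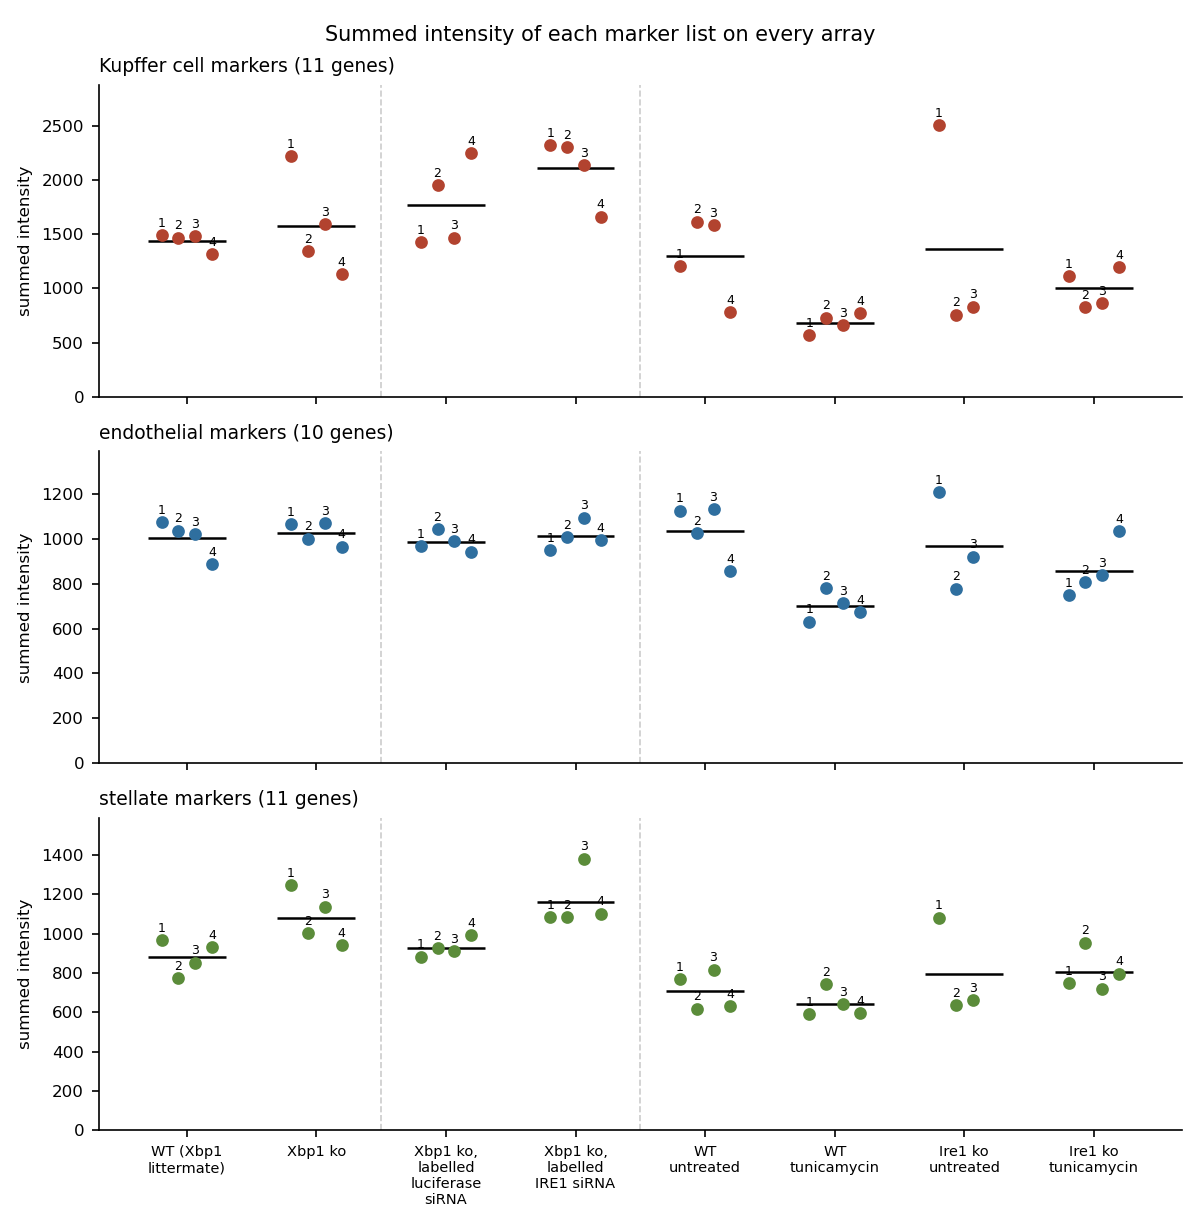
Summed intensity of the Kupffer cell (top), endothelial (middle) and stellate (bottom) markers on each array, by group. Points are arrays with their replicate number and bars are group means; the sums follow the brightest members, Cd5l, Fcgr2b with Clec4g, and Dcn. The 4 WT tunicamycin arrays lie between 565 and 770 for Kupffer cell markers, and replicate 1 of untreated Ire1 ko stands at 2503.

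Upstream sequence was available from RefSeq for 24 of the 32 members (build GRCm38.p6), as the 250 bases before the gene's start. Those of 6 of the 9 members that fell after tunicamycin in WT liver are printed so that the Kupffer cell genes can be set beside the endothelial and stellate ones: Cd5l (chr3:87357631-87357880, plus strand), Vsig4 (chrX:96293439-96293688, minus strand), Cd68 (chr11:69666171-69666420, minus strand), Kdr (chr5:75978456-75978705, minus strand), Fcgr2b (chr1:170976072-170976321, minus strand) and Col3a1 (chr1:45311288-45311537, plus strand). Capitals mark 2 of the 3 motifs searched on both strands. The motif GAGGAA is a form bound by the macrophage factor PU.1, and TATAAA is the box found before many starts. Other forms bound by PU.1 or by other ETS factors were not searched, so an unmarked sequence may hold them. The third motif, AGATAA, a form bound by GATA factors, was in 0 of these 6, and other GATA forms were not searched.
Cd5l: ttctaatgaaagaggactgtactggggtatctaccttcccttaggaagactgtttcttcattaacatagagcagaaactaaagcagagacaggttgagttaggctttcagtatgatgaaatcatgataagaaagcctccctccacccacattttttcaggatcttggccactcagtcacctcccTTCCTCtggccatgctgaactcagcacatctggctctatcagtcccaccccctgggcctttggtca
Vsig4: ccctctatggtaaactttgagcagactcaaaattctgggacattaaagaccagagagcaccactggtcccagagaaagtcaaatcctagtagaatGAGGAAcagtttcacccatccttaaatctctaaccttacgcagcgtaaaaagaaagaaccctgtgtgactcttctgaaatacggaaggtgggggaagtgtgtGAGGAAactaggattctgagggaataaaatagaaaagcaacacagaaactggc
Cd68: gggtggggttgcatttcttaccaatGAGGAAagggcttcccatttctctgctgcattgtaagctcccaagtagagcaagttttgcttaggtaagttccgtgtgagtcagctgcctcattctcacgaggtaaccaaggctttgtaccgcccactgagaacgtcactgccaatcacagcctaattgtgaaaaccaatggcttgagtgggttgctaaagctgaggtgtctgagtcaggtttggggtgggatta
Kdr: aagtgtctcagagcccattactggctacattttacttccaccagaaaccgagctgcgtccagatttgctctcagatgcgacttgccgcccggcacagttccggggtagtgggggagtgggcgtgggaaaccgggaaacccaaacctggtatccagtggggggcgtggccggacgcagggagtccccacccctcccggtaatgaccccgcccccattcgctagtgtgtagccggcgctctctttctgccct
Fcgr2b: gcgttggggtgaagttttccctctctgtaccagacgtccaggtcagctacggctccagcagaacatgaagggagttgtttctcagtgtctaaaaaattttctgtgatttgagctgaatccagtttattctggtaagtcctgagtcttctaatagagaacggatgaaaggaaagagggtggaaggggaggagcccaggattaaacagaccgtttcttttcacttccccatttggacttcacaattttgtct
Col3a1: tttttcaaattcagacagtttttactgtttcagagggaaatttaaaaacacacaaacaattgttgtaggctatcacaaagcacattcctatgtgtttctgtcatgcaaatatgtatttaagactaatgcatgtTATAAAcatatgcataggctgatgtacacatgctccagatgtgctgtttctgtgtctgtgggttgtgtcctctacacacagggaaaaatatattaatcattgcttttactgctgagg
GAGGAA lay 66 bases before the start of Cd5l, read on the other strand as TTCCTC, 155 and 53 bases before that of Vsig4, and 225 bases before that of Cd68. TATAAA lay 117 bases before the start of Col3a1. Of all 32851 promoters of this length, 23.3% held GAGGAA, 12.4% held TATAAA and 9.99% held AGATAA. Among the members, GAGGAA was in 6 of the 8 Kupffer cell markers with a promoter (Cd5l, Vsig4, Marco, C1qb, C1qc and Cd68), in 2 of 7 endothelial markers (Stab1 and Eng) and in 2 of 9 stellate markers (Hgf and Rgs5). A match describes the letters only. C1qa, Dcn, Pecam1, Adgre1, Csf1r, Lyve1, Cdh5 and Col1a1 had no entry.

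The question of the tunicamycin comparison was which genes respond to stress in the endoplasmic reticulum, and whether IRE1α is needed. In WT liver, 9 of the 31 members tested fell and 1 rose (limma, Benjamini-Hochberg adjusted p under 0.05), where 17.6% of all 15172 genes tested fell, 18.5% rose and 36.1% changed in either direction. The 9 were 3 of 11 Kupffer cell markers (Cd5l, Vsig4 and Cd68), 4 of 10 endothelial markers (Kdr, Stab2, Fcgr2b and Clec4g) and 2 of 10 stellate markers (Col3a1 and Rgs5). The arrays of the 2 groups did not overlap for 8 members, all lower after tunicamycin, against 14.8% of all genes in that direction. The median log2 difference was -0.71 for Kupffer cell markers, -0.28 for endothelial and -0.33 for stellate markers, and -0.02 over all genes. The hepatocyte list moved too, with 7 of 14 genes lower, 1 higher and a median of -0.18. Only 6 members passed when replicate 1 or 2 of the untreated WT arrays or replicate 3 or 4 of the tunicamycin WT arrays was left out. Setting the probe sets with a mean of 16 or more to a common median on each array moved the median of all genes to -0.14 and raised the members called to 17, of which 16 were lower. Of all 15172 genes, 2379 were then called higher and 3864 lower, against 2807 and 2677 as deposited.

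Cd5l read 552, 801, 562 and 362 in untreated WT liver and 212, 228, 252 and 315 after tunicamycin. No tunicamycin array reached the lowest untreated one. The mean went from 569 ± 179.8 (SD, n = 4) to 252 ± 45.3 (SD, n = 4), a 2.2-fold fall (log2 difference -1.14, SE 0.31, limma adjusted p = 0.00795). Vsig4 read 150, 177, 230 and 89 untreated and 59, 83, 86 and 79 after the drug. The groups did not overlap, although the highest tunicamycin array and replicate 4 of the untreated arrays were 86 and 89. Its fall was 2.01-fold (log2 difference -1.01, SE 0.35, limma adjusted p = 0.0336), and the call was lost without any 1 of the 8 WT arrays other than untreated replicate 4, with adjusted p between 0.0511 and 0.113, and with no filter on low values (0.0685). Cd68 read 27, 28, 45 and 18 untreated and 15, 20, 14 and 13 after tunicamycin. These groups overlapped, since the tunicamycin array at 20 stood above the untreated one at 18. The log2 difference was -0.87 (SE 0.32, limma adjusted p = 0.0448), and it no longer passed without any 1 of 10 arrays: replicates 1, 2 and 3 of untreated WT, replicates 1, 3 and 4 of tunicamycin WT and each of the 4 Ire1 ko tunicamycin arrays (adjusted p 0.0518 to 0.156). It was also lost with no filter (adjusted p = 0.0828) and on the log2 of the intensity plus 8 (adjusted p = 0.0533).

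The other Kupffer cell markers did not pass, and 7 of the remaining 8 had a negative difference. The growth factor receptor Csf1r read 29, 28, 42 and 20 untreated and 14, 20, 16 and 15 after tunicamycin, a log2 difference of -0.84 (SE 0.33, limma adjusted p = 0.0605). Clec4f read 102, 133, 178 and 79 and then 61, 83, 66 and 74, a log2 difference of -0.74 (limma adjusted p = 0.0722). In both genes the lowest untreated array, replicate 4, was the only one not above all 4 tunicamycin arrays. The 3 C1q chains, products of neighbouring genes, had like values: C1qa, C1qb and C1qc had log2 differences of -0.52, -0.67 and -0.71 with limma adjusted p of 0.313, 0.158 and 0.112. Adgre1 had -0.38 (limma adjusted p = 0.274). The scavenger receptor Marco was the exception, at 6, 6, 8 and 7 untreated and 10, 33, 8 and 13 after tunicamycin, with a log2 difference of 1.02 (SE 0.42, limma adjusted p = 0.0733), close to the floor. It passed without tunicamycin WT replicate 3 (adjusted p = 0.038) and without Ire1 ko tunicamycin replicate 1 (adjusted p = 0.0361). Without untreated WT replicate 4, the array with the lowest Kupffer cell marker values, 7 of the 11 passed, all lower, and the list median was -0.95. Clec4f (adjusted p = 0.0139), Csf1r (adjusted p = 0.0063) and C1qc (adjusted p = 0.0202) also passed when the high untreated Ire1 ko replicate 1, which here bears only on the estimate of the spread, was left out of the fit. Both arrays were singled out by these same marker values. A larger fall or a smaller spread without them was largely set in advance and adds no support.

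The endothelial marker Kdr, the receptor through which VEGF acts on these vessels, varied little within a group. It read 57, 53, 50 and 53 in untreated WT liver and 32, 34, 34 and 34 after tunicamycin. All 4 tunicamycin arrays were below all 4 untreated ones, and the fall was 1.59-fold (log2 difference -0.67, SE 0.11, limma adjusted p = 0.000164). Fcgr2b, the Fc receptor with which these cells take up immune complexes, read 457, 392, 514 and 343 and then 241, 275, 225 and 220. The groups were again apart, with a 1.76-fold fall (log2 difference -0.82, SE 0.15, limma adjusted p = 0.000353). The 3 dimmer probe sets of Fcgr2b gave log2 differences of -0.45, -0.55 and -0.81. Both genes passed with any 1 of the 15 arrays left out.

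Clec4g read 360, 361, 317 and 252 untreated and 142, 246, 246 and 229 after tunicamycin, so the groups came within 6 units of each other without overlap. Its log2 difference was -0.60 (SE 0.23, limma adjusted p = 0.0479), and it was lost without any 1 of 10 arrays: replicates 1, 2 and 3 of untreated WT, each tunicamycin WT array, untreated Ire1 ko replicate 3 and Ire1 ko tunicamycin replicates 2 and 3 (adjusted p 0.0504 to 0.179). It was also lost with no filter (adjusted p = 0.0862), with no intensity trend (adjusted p = 0.0548) and when its 2 probe sets, of which 1 is at the floor, were averaged (log2 difference -0.30, adjusted p = 0.135). Stab2 moved least of the genes that passed, from 93, 88, 84 and 87 to 81, 70, 70 and 67. Its 1.22-fold fall (log2 difference -0.29, SE 0.1, limma adjusted p = 0.0363) was lost without any 1 of the 6 WT arrays other than untreated replicate 3 and tunicamycin replicate 1 (adjusted p 0.0544 to 0.0892) and in 1 fit over all 31 arrays (adjusted p = 0.218). Its relative Stab1 read 37, 27, 41 and 30 and then 46, 38, 37 and 31, with overlapping groups (log2 difference 0.18, limma adjusted p = 0.506). Lyve1, a hyaluronan receptor, was the 1 member that rose, from 8, 7, 15 and 9 to 13, 16, 28 and 15. Both groups were near the floor and overlapped, since the tunicamycin array at 13 stood below the untreated one at 15. The log2 difference was 0.88 (SE 0.27, limma adjusted p = 0.0151), its second probe set gave 0.60, and the call was lost without untreated WT replicate 2 (adjusted p = 0.0595) or tunicamycin WT replicate 3 (adjusted p = 0.0623).

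Of the stellate markers, Col3a1, the chain of type III collagen, read 37, 40, 52 and 32 in untreated WT liver and 11, 19, 17 and 16 after tunicamycin. The groups were well apart, and the 2.57-fold fall was the largest of the 31 members (log2 difference -1.36, SE 0.21, limma adjusted p = 7.32e-05). Its second probe set was at the floor, at 4 in both groups. Rgs5 read 101, 69, 79 and 74 and then 62, 30, 38 and 42, with no overlap and a log2 difference of -0.94 (SE 0.25, limma adjusted p = 0.00571). Col3a1 and Rgs5 passed with any 1 array left out. When the 4 probe sets of Rgs5, of which 3 are dimmer than the one used, were averaged, Rgs5 had a log2 difference of -0.35 and did not pass (limma adjusted p = 0.0656). Dcn, the brightest stellate member, read 404, 343, 462 and 333 untreated and 381, 477, 432 and 397 after tunicamycin, with overlapping groups (log2 difference 0.14, SE 0.16, limma adjusted p = 0.604). Col4a1, of the basement membrane, read 29, 23, 21 and 15 and then 15 on all 4 arrays (log2 difference -0.51, limma adjusted p = 0.0739). It passed without untreated WT replicate 4 (adjusted p = 0.0181), or without Ire1 ko tunicamycin replicate 1 (adjusted p = 0.0422) or 4 (adjusted p = 0.0468). Lrat passed without untreated WT replicate 2 (adjusted p = 0.0329), and Colec11 and the endothelial Eng without tunicamycin WT replicate 2 (adjusted p = 0.0222 and 0.0196).

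**Figure D2:**
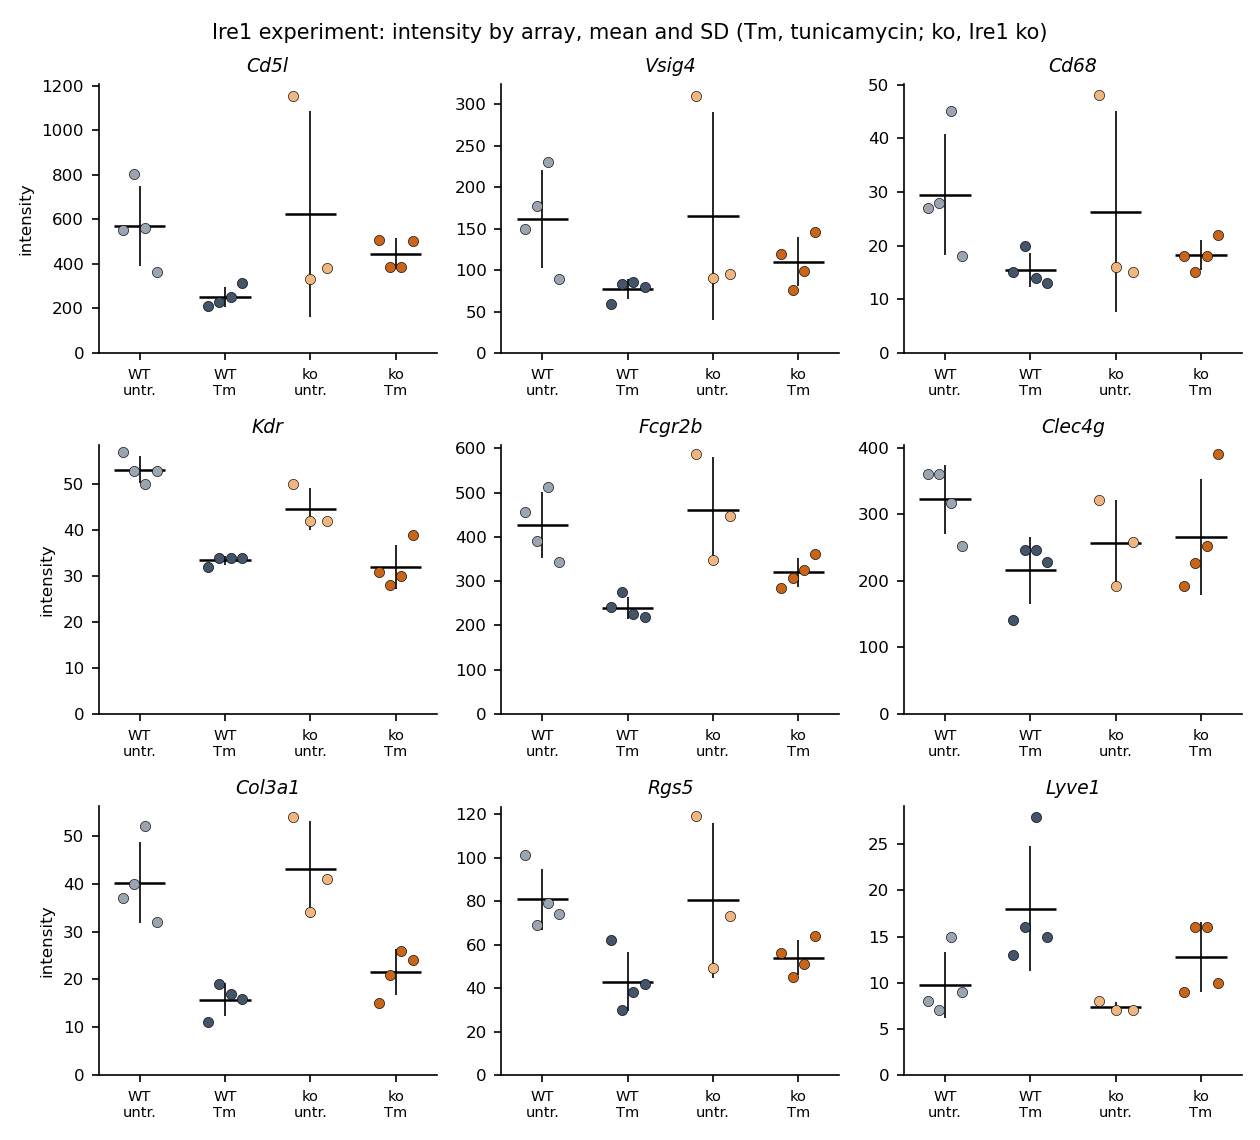
Intensity of 9 members on each array of the Ire1 experiment (untr., untreated; Tm, tunicamycin), with the group mean and SD as a bar and a line. Kdr, Fcgr2b and Col3a1 separate treated from untreated WT arrays, and in the Kupffer cell genes of the top row 1 untreated Ire1 ko array stands far above the other 2.

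In Ire1 ko liver, 4 of the 31 members passed after tunicamycin, where 27.7% of all genes did: Kdr, Fcgr2b and Col3a1 fell (10.3% of all genes did) and Stab1 rose (17.4% did). Col3a1 read 54, 34 and 41 untreated and 15, 21, 26 and 24 after the drug. The groups did not overlap, as in 10.6% of all genes for lower values (log2 difference -1.0, SE 0.23, limma adjusted p = 0.00329). Kdr read 50, 42 and 42 and then 31, 28, 30 and 39, again apart (log2 difference -0.49, SE 0.12, limma adjusted p = 0.0064). Fcgr2b read 588, 349 and 447 and then 284, 307, 326 and 362. Its groups overlapped, and the log2 difference of -0.50 (SE 0.16, limma adjusted p = 0.0299) was lost without untreated replicate 1 (adjusted p = 0.187), untreated replicate 3 or tunicamycin replicate 1, 2 or 3 of the Ire1 ko arrays (adjusted p 0.0516 to 0.0846 for these 4). Its 3 dimmer probe sets gave -0.12, -0.08 and -0.20, and with the 4 averaged it had -0.22 and did not pass (adjusted p = 0.444). It was also lost with no filter (adjusted p = 0.051). Stab1 read 32, 22 and 19 and then 32, 39, 38 and 36, with replicate 1 of both groups at 32. Its log2 difference was 0.61 (SE 0.19, limma adjusted p = 0.0236), and the call was lost without untreated Ire1 ko replicate 2 or 3 or tunicamycin replicate 2 or 3 (adjusted p 0.054 to 0.131) or after quantile normalization (adjusted p = 0.0963).

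Of the Kupffer cell markers, 0 of 11 passed in Ire1 ko liver (limma), 0 had an unadjusted p under 0.05, and 10 of 11 differences were negative with a median of -0.21. This sign rested on 1 array. Cd5l read 1155, 333 and 382 untreated and 508, 384, 385 and 503 after tunicamycin, and Vsig4 read 310, 90 and 95 and then 119, 76, 99 and 146. In each gene the untreated replicate 1 was far above every other array, and replicates 2 and 3 were no higher than the highest treated arrays. Without that array all 11 differences were positive, with a median of 0.31, and 0 of the 11 passed. The array had been singled out by these values, so an upward shift without it was set in advance. The number of members called in Ire1 ko liver was 4 with it and 4 without it, with Dcn (log2 difference 0.48, adjusted p = 0.0299) in place of Fcgr2b. It was 2 without untreated replicate 3 or without tunicamycin replicate 2 or 3. Lyve1, at 8, 7 and 7 untreated and 9, 16, 16 and 10 after tunicamycin, did not overlap (log2 difference 0.75, limma adjusted p = 0.0658; 18.2% of all genes were higher without overlap), and it passed without untreated WT replicate 3 (adjusted p = 0.0394), tunicamycin WT replicate 3 (adjusted p = 0.0382) or Ire1 ko tunicamycin replicate 1 (adjusted p = 0.0406). Rgs5 passed without untreated Ire1 ko replicate 2 (log2 difference -0.80, adjusted p = 0.0379).

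**Figure D3:**
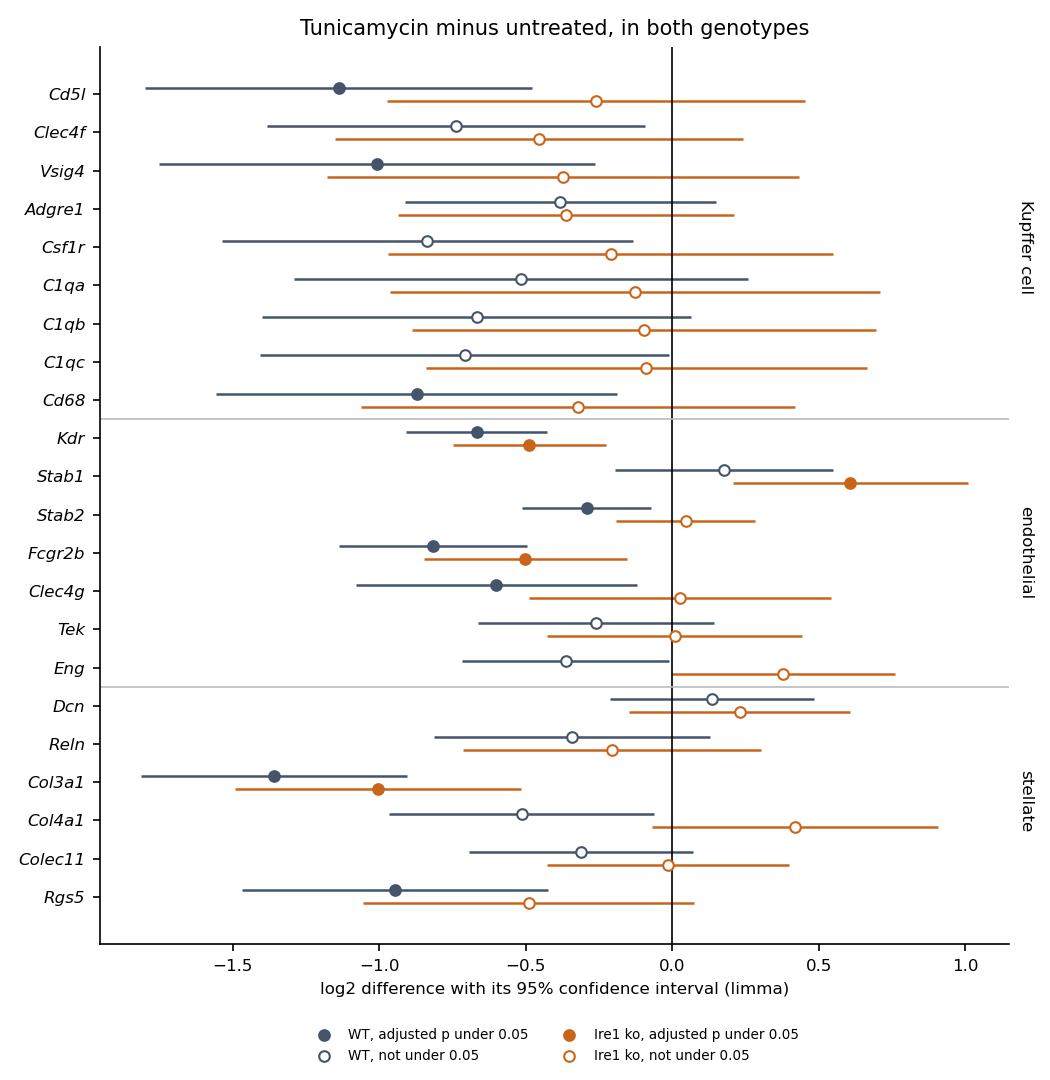
Log2 difference of tunicamycin minus untreated for the 22 members with a mean intensity of 16 or more, in WT (upper point) and Ire1 ko (lower point), with 95% confidence intervals from limma. Filled points passed at an adjusted p under 0.05. The points of the 9 Kupffer cell markers lie below 0 in both genotypes, with wide intervals, and in Ire1 ko they do so only with replicate 1 of the untreated arrays, and Kdr, Fcgr2b and Col3a1 are filled in both.

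The test of the interaction, which compares the tunicamycin responses of the 2 genotypes, was passed by 0 of 31 members, where 7.53% of all genes passed (limma), and 4 members, all with a positive interaction, had an unadjusted p under 0.05. The difference between responses was 0.74 for Eng (95% confidence interval 0.22 to 1.26, limma adjusted p = 0.0868) and 0.93 for Col4a1 (0.27 to 1.60, adjusted p = 0.0922). Eng read 73, 62, 70 and 55 in untreated and 48, 68, 39 and 50 in treated WT liver, and 62, 51 and 39 in untreated and 64, 64, 61 and 70 in treated Ire1 ko liver. The 2 probe sets of Eng did not move alike, since the dimmer one differed by -0.29 in WT and -0.08 in Ire1 ko liver, where the one used differed by -0.36 and 0.38. Col4a1 was at 18, 13 and 16 in untreated and 14, 21, 21 and 30 in treated Ire1 ko liver, and its second probe set differed by -0.31 in WT and 0.29 in Ire1 ko. For Cd5l the interaction was 0.88 (95% confidence interval -0.09 to 1.85, adjusted p = 0.316). Without untreated Ire1 ko replicate 1, the interaction passed for Cd5l (1.44, adjusted p = 0.0108), Csf1r (1.21, adjusted p = 0.0475) and Eng (0.90, adjusted p = 0.0397). This left only replicates 2 and 3 in that group. The array had been singled out by its high values in these markers, so a larger interaction without it was largely set in advance. These passes are therefore no support for a difference between the genotypes. Col4a1 passed without untreated WT replicate 4 (adjusted p = 0.037) or Ire1 ko tunicamycin replicate 1 (adjusted p = 0.0276), and Eng without tunicamycin WT replicate 2 (adjusted p = 0.0257).

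After tunicamycin, Ire1 ko and WT livers were compared directly. None of the 31 members passed (limma), where 18.2% of all genes did, and 7 members had an unadjusted p under 0.05, all higher in Ire1 ko. The median difference was 0.34 for Kupffer cell, 0.20 for endothelial and 0.29 for stellate markers, against 0.01 over all genes. The hepatocyte list had 13 of 14 positive differences, 2 of them called, and a median of 0.10, and Fn1, fibronectin, which hepatocytes also make, was 1.04 higher on the log2 scale (adjusted p = 7.5e-07). Their part in the shift of the markers was not tested. Cd5l read 212, 228, 252 and 315 in WT and 508, 384, 385 and 503 in Ire1 ko liver. Every Ire1 ko array was above every WT array, and the log2 difference was 0.82 (SE 0.31, limma adjusted p = 0.0826). Fcgr2b read 241, 275, 225 and 220 and then 284, 307, 326 and 362, also without overlap (log2 difference 0.41, SE 0.15, limma adjusted p = 0.0734). Csf1r, at 14, 20, 16 and 15 and then 36, 24, 21 and 29, was the last of the 3 members without overlap (log2 difference 0.74, SE 0.33, limma adjusted p = 0.151). Of all genes, 10.7% were higher without overlap. Stab2 was nearest the threshold (log2 difference 0.31, SE 0.1, limma adjusted p = 0.0516). Under 9 other ways of processing the data, Stab2 passed in 8, all but 1 fit over all 31 arrays. Fcgr2b passed in 4 of the 9, Cd5l in 3 and Csf1r in 0, so the result for Stab2 depends on the processing. These 4 genes passed when untreated Ire1 ko replicate 1, which is not among the arrays compared but enters the estimate of the spread, was left out of the fit (adjusted p 0.00758 for Cd5l, 0.0258 for Csf1r and 0.0374 for Stab2 and Fcgr2b). That array was singled out by its high marker values, so a smaller spread without it was largely set in advance. Stab2 also passed without untreated Ire1 ko replicate 3, tunicamycin WT replicate 1 or Ire1 ko tunicamycin replicate 3 (adjusted p 0.0302 to 0.0422), Fcgr2b without untreated Ire1 ko replicate 2 (adjusted p = 0.0417), Eng without tunicamycin WT replicate 2 (adjusted p = 0.037) and Col4a1 without Ire1 ko tunicamycin replicate 1 (adjusted p = 0.0362).

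Between untreated livers, 0 of 31 members passed (limma), where 0.943% of all genes did, and 1 had an unadjusted p under 0.05, Stab1 (37, 27, 41 and 30 in WT, 32, 22 and 19 in Ire1 ko, a log2 difference of -0.49 with adjusted p = 0.409). The confidence intervals of the Kupffer cell markers were wide, for example -0.77 to 0.66 for Cd5l, whose Ire1 ko arrays read 1155, 333 and 382 against 552, 801, 562 and 362. Without replicate 1, Cd5l was at -0.62 (adjusted p = 0.344) and C1qc at -0.79 (adjusted p = 0.281), and 0 members passed.

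**Figure D4:**
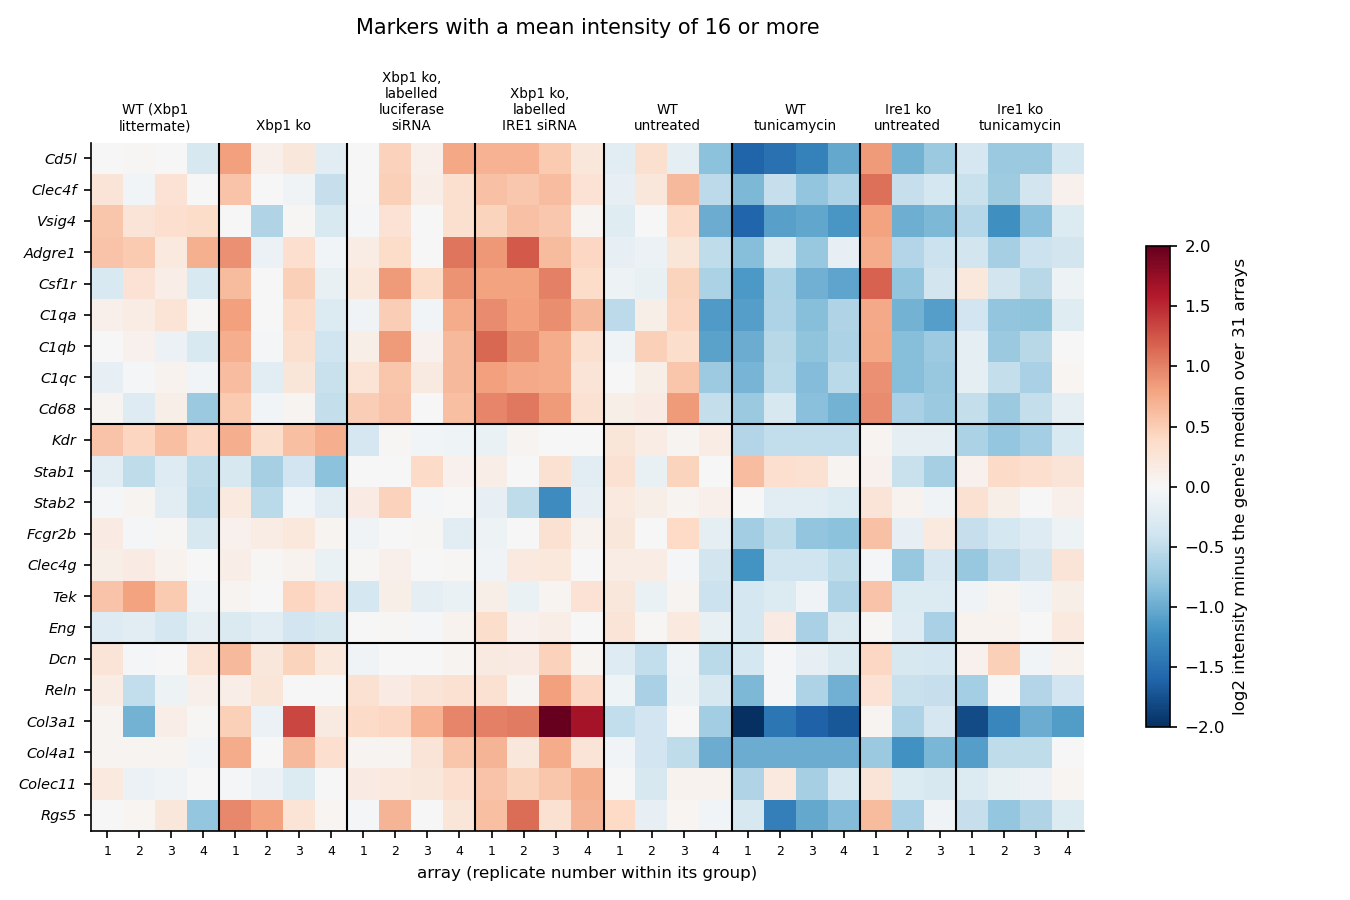
Log2 intensity of the 22 brighter members on the 31 arrays, each gene relative to its own median, with red above and blue below it; colours saturate at 2. Columns are arrays in their groups and rows are Kupffer cell, endothelial and stellate markers from top to bottom. Kupffer cell rows change together from array to array, most clearly at replicate 1 of untreated Ire1 ko, and Col3a1 is lowest on the arrays after tunicamycin.

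The comparison of Xbp1 ko with WT littermates asked which genes depend on XBP1. None of the 31 members passed (limma), where 2.71% of 14008 genes did, and 5 had an unadjusted p under 0.05, 3 higher and 2 lower. Xbp1 itself, measured to check the labels, read 404 to 567 in Xbp1 ko and 807 to 1140 in WT arrays. Vsig4 read 261, 211, 223 and 229 in WT and 178, 117, 179 and 144 in Xbp1 ko liver. All Xbp1 ko arrays were below all WT arrays (log2 difference -0.60, SE 0.15, limma adjusted p = 0.0924). The other Kupffer cell markers did not share this: Cd5l, at 641, 651, 643 and 515 and then 1138, 688, 751 and 548, had a log2 difference of 0.31 (limma adjusted p = 0.542), and the list median was 0.09, or -0.11 without Xbp1 ko replicate 1.

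Lyve1 was the other member lower without overlap, at 9, 12, 15 and 17 in WT and 8, 8, 6 and 7 in Xbp1 ko liver (log2 difference -0.84, SE 0.2, limma adjusted p = 0.091). Its second probe set gave -0.90, and it passed without WT replicate 1 (adjusted p = 0.0388). Col1a1, a chain of type I collagen, was higher without overlap, at 5, 4, 5 and 5 and then 6, 6, 9 and 8, a difference of a few units at the floor (log2 difference 0.59, limma adjusted p = 0.112). Non-overlap in the same direction was found in 3.73% of all genes for lower and 3.28% for higher values. Col3a1 read 54, 27, 57 and 53 and then 72, 48, 131 and 59, with overlap (log2 difference 0.65, limma adjusted p = 0.494), and Rgs5 read 77, 79, 90 and 45 and then 150, 135, 93 and 79 (0.65, adjusted p = 0.343). Among the endothelial receptors, some gave narrow intervals around small differences: the 95% confidence interval of the log2 difference was -0.15 to 0.33 for Kdr, -0.07 to 0.39 for Fcgr2b and -0.22 to 0.10 for Clec4g. Not all did so. Stab2 read 80, 84, 69 and 56 in WT and 93, 56, 78 and 70 in Xbp1 ko liver. Tek read 34, 40, 33 and 22 and then 24, 23, 31 and 28. Eng differed by -0.04 on the probe set used and by -0.47 on its dimmer one.

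In the siRNA experiment the labels could not be borne out. Ern1, the gene that encodes IRE1α, read 18 to 35 on the arrays labelled luciferase siRNA and 169 to 236 on those labelled IRE1 siRNA, the reverse of a knockdown in the latter. Differences are given as labelled, IRE1 minus luciferase, and would turn their sign if the labels were exchanged. None of the 31 members passed (limma), where 1.79% of 14030 genes did, and 7 had an unadjusted p under 0.05 above and 2 below 0. The differences were positive in 11 of 11 Kupffer cell markers (median 0.28), 7 of 10 endothelial markers (median 0.08) and 10 of 10 stellate markers (median 0.29), against a median of 0.04 over all genes. Under the common median scaling these counts were 11, 5 and 9.

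Colec11, a soluble lectin of the complement system, came closest, at 46, 47, 48 and 52 on arrays labelled luciferase and 61, 56, 60 and 67 on arrays labelled IRE1 (log2 difference 0.34, SE 0.07, limma adjusted p = 0.0714). Col3a1 read 68, 69, 84 and 102 and then 105, 107, 208 and 164 (log2 difference 0.81, limma adjusted p = 0.183), and Dcn read 463, 483, 479 and 503 and then 546, 541, 665 and 504 (0.22, adjusted p = 0.268). The groups of these 3 genes did not overlap, which was so for 4.23% of all genes in that direction. Stab2 was the 1 member below without overlap, at 91, 111, 79 and 81 and then 72, 57, 34 and 72 (log2 difference -0.67, SE 0.25, limma adjusted p = 0.262; 2.51% of all genes). Cd5l, at 645, 887, 690 and 1094 and then 1039, 1042, 918 and 750, overlapped widely (0.20, adjusted p = 0.691). Pecam1 passed without the luciferase array of replicate 4 (log2 difference 0.22, adjusted p = 0.0188), at values near the floor.

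**Figure D5:**
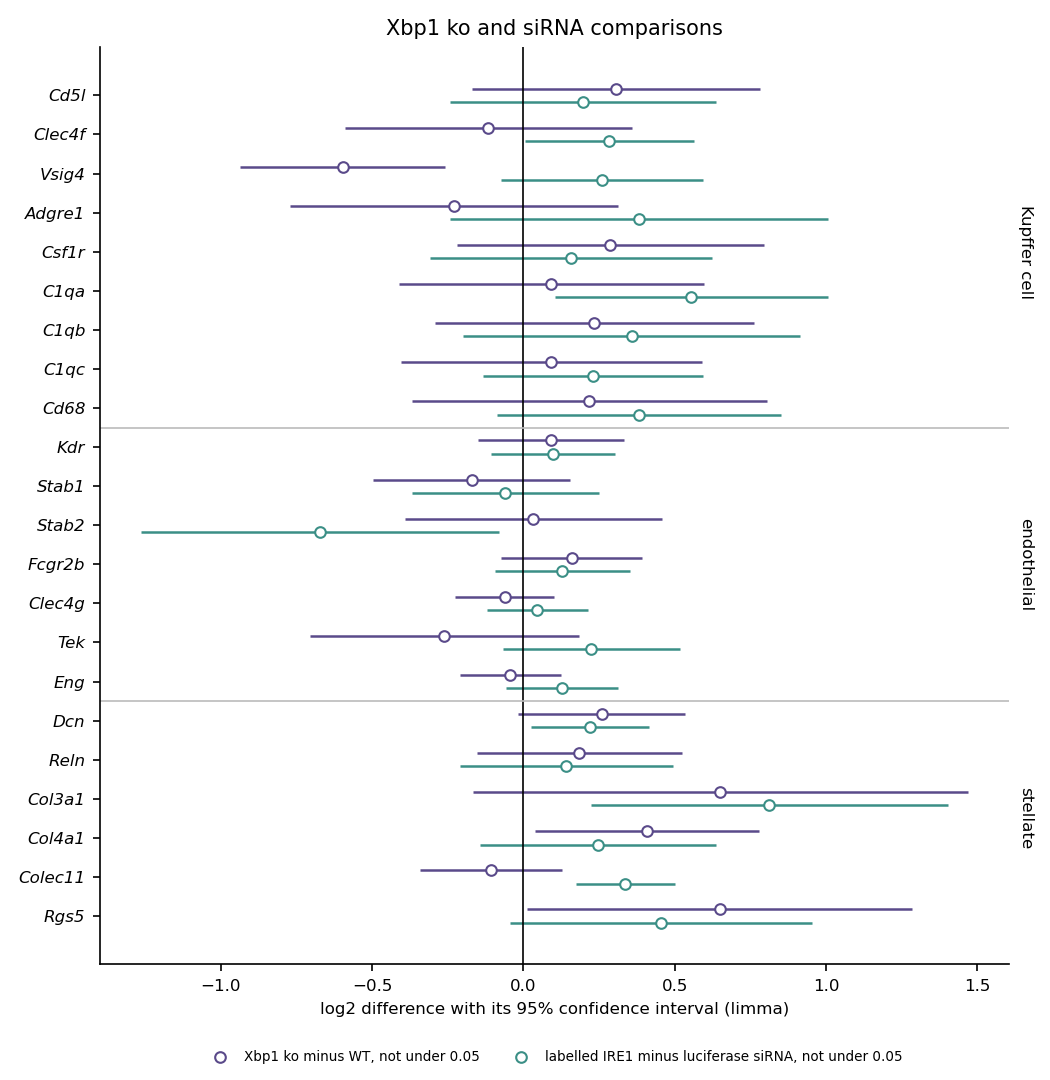
Log2 differences of the 22 brighter members for Xbp1 ko minus WT (upper point) and, in Xbp1 ko mice, for arrays labelled IRE1 siRNA minus those labelled luciferase siRNA (lower point), with 95% confidence intervals from limma. No point is filled, since none passed. Vsig4 is the member farthest below 0 in the first comparison and Stab2 in the second, and Col3a1 is the farthest above 0 in both.

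Further genes of the same cell types, from lists that also include genes other liver cells express, were counted in the same fits. After tunicamycin in WT liver, where 17.6% of all genes fell and 18.5% rose, 11 of 25 further macrophage genes fell and 2 rose. Slc40a1, the iron exporter ferroportin, went from 351 ± 20.5 to 118 ± 27.9 (SD, n = 4 each; log2 difference -1.61, SE 0.18, limma adjusted p = 1.54e-06), followed by Mpeg1 (perforin 2, log2 difference -1.28) and Folr2 (a folate receptor of resident macrophages, -1.22). Id3, a transcriptional inhibitor listed for its role in Kupffer cells, rose from 121 ± 28.7 to 992 ± 138 (SD, n = 4 each; log2 difference 3.06, SE 0.19, limma adjusted p = 2.02e-09), and Hmox1, heme oxygenase 1, from 5 to 10 (0.97). Of 29 further endothelial genes 8 fell, led by Nrp1, the VEGF co-receptor neuropilin 1, from 124.5 ± 9.75 to 26.2 ± 2.06 (SD, n = 4 each; log2 difference -2.25, SE 0.17, limma adjusted p = 2.75e-08), then Icam2 (-0.75) and Dnase1l3 (-0.74). Dnase1l3 did not pass with averaged probe sets. Icam2, with means of 12.25 untreated and 7.25 after tunicamycin, was near the floor. Of 27 further stellate genes 5 fell, or 18.5%, a share near the 17.6% of all genes. They include Acta2 (smooth muscle actin, -0.92), Gdf2 (BMP9, -0.69) and Tgfbi (-0.68). With single arrays left out, the call held in 11 of 15 fits for Folr2 (lost without untreated WT replicate 2 or 3 or tunicamycin WT replicate 1 or 3), in 10 of 15 for Gdf2 (lost without untreated WT replicate 1 or 3 or tunicamycin WT replicate 1, 3 or 4) and in 13 of 15 for Tgfbi (lost without untreated WT replicate 3 or tunicamycin WT replicate 4).

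Ligands that act on these cells were counted as well, and 6 of 24 fell and 1 rose in WT liver, against 17.6% and 18.5% of all genes. The chemokine Cxcl12 had a log2 difference of -1.19 (limma adjusted p = 2.86e-05), Vegfb, at 7.0 after tunicamycin and so near the floor, one of -1.03 and Vegfa, the ligand of Kdr, one of -0.60 (adjusted p = 0.00161). Ccn2, a matricellular protein, rose by 2.5 on the log2 scale (adjusted p = 1.6e-05). In Ire1 ko liver, where 10.3% of all genes fell and 17.4% rose, the same lists gave 1 of 25 macrophage genes lower (Slc40a1, -0.68) and 3 higher (Id3, Cd14 and Hmox1), 1 of 29 endothelial genes lower (Nrp1, -2.0), 0 of 27 stellate genes (3 with an unadjusted p under 0.05) and, among 24 ligands, Cxcl12 lower and Ccn2 and Vegfc higher. Tnf also passed as lower (adjusted p = 0.0489), but it lay at the floor, with means of 5.33 and 4.25, and kept its call in 3 of 15 fits with 1 array left out. Vegfc, with means of 5.67 and 10.5, was near the floor. Hmox1, with means of 5.0 and 8.5, kept its call in 8 of 15 fits, Cd14 lost it without untreated Ire1 ko replicate 2 or 3, and Slc40a1 without untreated Ire1 ko replicate 1. Between the genotypes after tunicamycin, where 18.2% of all genes passed, 4 of the 105 genes of these lists did. Slc40a1 (log2 difference 0.88, adjusted p = 0.00178) and Nr1h3 (LXRα, 0.38) were higher and Id3 (-0.75, adjusted p = 0.00964) was lower in Ire1 ko, and Vegfc, near the floor, was higher (0.74). In the untreated Ire1, Xbp1 and siRNA comparisons, 0 genes of these 4 lists passed (limma), and 6, 10 and 12 had an unadjusted p under 0.05.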

How the data were processed

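RNA of mouse liver was hybridised to 31 Affymetrix arrays with perfect-match probes. Per the submitters' processing notes the values were made with RMA in affy, and whether all arrays were normalised in 1 run is not given in the sources used here. The deposited table holds linear intensity values for 45037 probe sets, rounded to whole numbers, the lowest being 3. The log2 of the deposited intensity was taken here. Of the probe sets, 28898 have 1 gene symbol in the platform annotation, 551 have several and were not used, and 15588 have none or are not listed. Genes were tested where the probe set with the highest mean was above the 30th percentile of the array on at least 3 arrays of the fit. Each experiment was fitted on its own with limma 3.58.1 in R 4.3.3 (lmFit, eBayes with an intensity trend), and the 4 groups of the Ire1 experiment shared 1 fit. P-values were adjusted over all genes tested by Benjamini-Hochberg with a threshold of 0.05. The method was tested on simulated data.

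The members and the gene lists were chosen with earlier results of these data known. Members that passed in any comparison are given with the value of every array, and others by their range, by counts or, where they share a role with one that passed or lay near the threshold, by value. At most 3 called genes per further list, comparison and direction are named, by size of the log2 difference. Alternatives were 2 other scalings, 2 other filters, log2 of the intensity plus 8, the mean of a gene's probe sets, 1 fit over all arrays, a replicate block, no intensity trend and leaving out each array. Upstream sequences are from RefSeq.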

Additional observations from a re-analysis of the deposited data

Results flagged for a closer look

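Single arrays stood far from the rest of their group in 6 of 154 groups of values examined for the brighter members, where chance alone gives about 1 in 20 groups. Untreated Ire1 ko, with 3 arrays, was not examined, so its replicate 1 could not be flagged here. Among WT littermates of the Xbp1 experiment, Cd5l read 515 on replicate 4, below 641 to 651 on the others, Col3a1 read 27 on replicate 2, below 53 to 57, and Col4a1 read 29 on replicate 4, where the others read 31. C1qc read 153 on replicate 4 of the arrays labelled IRE1 siRNA, below 213 to 225. After tunicamycin in WT liver, replicate 1 read 142 for Clec4g, below 229 to 246, and 32 for Kdr, where the others read 34. The gaps of Col4a1 and Kdr are 2 units of values deposited as whole numbers.

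The tunicamycin response differed between WT and Ire1 ko liver in 6 genes of the further lists, by the interaction test in limma. They were 4 of the 105 genes tested in the macrophage, endothelial, stellate and ligand lists, 1 of 8 genes of the monocyte list (Fn1) and 1 of 14 hepatocyte genes (Hnf4a). Hepatocytes also make Fn1, and only 2 genes of the monocyte list had a mean intensity of 16 or more. The call of Fn1 therefore cannot be read as one of monocytes. The lists of other cells gave 0 of 10 neutrophil, 0 of 14 lymphocyte, 0 of 5 cholangiocyte, 0 of 3 erythroid and 0 of 5 mesothelial genes. A mean intensity of 16 or more was reached by 0 of the neutrophil, cholangiocyte and mesothelial genes, 1 lymphocyte gene and 2 erythroid genes. Genes near the floor can hardly pass, so these counts of 0 do not show that those cells responded alike. The difference on the log2 scale, Ire1 ko minus WT, was 0.93 for Slc40a1 (adjusted p = 0.0392), 0.85 for Nr1h3 (adjusted p = 0.00143), 0.76 for the growth factor Vegfc (adjusted p = 0.0206), 0.69 for Nos3, the endothelial nitric oxide synthase (adjusted p = 0.0196), 0.85 for fibronectin, Fn1 (adjusted p = 0.00113), and 0.58 for the hepatocyte factor Hnf4a (adjusted p = 0.00803). Of all genes tested, 7.53% passed this test. The call for Slc40a1 was not stable: it held in 4 of 15 fits with 1 array left out (without tunicamycin WT replicate 2 or 3, untreated Ire1 ko replicate 1 or Ire1 ko tunicamycin replicate 3), the adjusted p rose to as much as 0.107, and it was lost with no filter on low values and with the replicate number as a block. Vegfc did not pass without untreated Ire1 ko replicate 3, and Nos3 did not pass without untreated Ire1 ko replicate 2 or under the common median. The calls of Nr1h3, Fn1 and Hnf4a held in all 15 fits with 1 array left out and all 9 other alternatives.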

How the results depend on the processing

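Of the counts of calls recomputed under the alternatives, 264 were within 1.5 times the reported count and 44 were not, and 0 values of a named gene that was called changed sign. Counts of 0 that stayed at 0 are among the 264. Of the results of single genes under the alternatives, 211 lost a call, 96 gained one and 5797 did neither. The cause of the differences was not tested. After tunicamycin in WT liver the members called were 18 under quantile normalization and 17 under the common median, and 6 to 14 when 1 array was left out. Of all 15172 genes, 3174 and 3864 were called lower under these scalings, against 2677 as deposited, and 2527 and 2379 higher, against 2807. The members called in Ire1 ko liver were 2 to 5 with 1 array left out. Between genotypes after tunicamycin, where 0 passed, they were 2 under quantile normalization, 3 under the common median and with a filter at an intensity of 16, 2 in 1 fit over all 31 arrays, 1 with no filter, with log2 of the intensity plus 8, with averaged probe sets or with no intensity trend, and 0 to 4 with 1 array left out. For the interaction they were 2 with the filter at 16 and in the fit over all arrays, and 0 to 3 with 1 array left out. For Xbp1 ko they were 2 under the common median and in the fit over all arrays, 1 with the filter at 16 or averaged probe sets, and 0 to 1 with 1 array left out. For siRNA they were 2 in the fit over all arrays and 0 to 1 with 1 array left out.

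Over all genes, the calls went from 380 to 571 in the fit over all arrays for Xbp1 ko (237 to 373 with 1 array left out), from 251 to 397 with the filter at 16 for siRNA, and for untreated Ire1 ko, from 143, to between 95 and 147 with 1 array left out. The split of calls into higher and lower moved with the scaling: after tunicamycin in WT liver it was 2807 to 2677 as deposited, 2527 to 3174 after quantile normalization and 2379 to 3864 under the common median. In Ire1 ko liver it was 2634 to 1570, 2055 to 2226 and 1878 to 3365, and for siRNA 91 to 160, 69 to 202 and 51 to 282. For untreated Ire1 ko it was 12 to 131, and 29 to 102 under the common median.

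Same-numbered arrays did not all deviate together (correlations 0.0196 to 0.269 in the Xbp1, -0.154 to 0.0587 in the siRNA and -0.183 to 0.294 in the Ire1 experiment, where WT and Ire1 ko arrays after tunicamycin had 0.0864 to 0.202), so the number was not taken to pair them. With it as a replicate block, 197 genes passed for Xbp1 ko, 43 for siRNA, and 1 member for the genotypes after tunicamycin. The block ended the tunicamycin calls of Cd68 (adjusted p = 0.0607) and Clec4g (adjusted p = 0.0713) in WT liver and of Fcgr2b (adjusted p = 0.0606) in Ire1 ko liver, while Lrat then passed in WT liver and Lyve1 and Rgs5 in Ire1 ko liver.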

Other observations

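Ramp2, a co-receptor for adrenomedullin listed among the further endothelial genes and singled out after its values were seen, read between 1296 and 1670 on the 8 arrays of the Xbp1 experiment and between 164 and 360 on the other 23.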
